A study of Rattus norvegicus with 8 samples.

Results

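The genes described here encode carriers that move amino acids and short peptides across the membranes of cells and of their lysosomes. The list held 33 carrier genes, chosen by name, and a gene was taken as measured where a probe set carried its symbol and no other. That gave 31 measured genes with 42 probe sets, out of 14217 named genes and 31042 probe sets tested. No probe set with a single symbol stood for Slc36a4 or Slc43a3.

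RNA came from the epitrochlearis, a thin forelimb muscle made mostly of fast fibres, and was read on 1 Affymetrix array per rat. All 8 animals were male Sprague-Dawley rats labelled as 6 weeks old that had practised swimming for 3 days, had eaten a restricted 5 g of chow on the day before and had then swum for 2 h. Straight after swimming, 4 rats received by gavage a meal of carbohydrate with whey protein hydrolysate (WPH), which is whey protein cut by enzymes into peptides, and 4 received an isoenergetic meal of carbohydrate with an amino acid mixture (AAM). The series asks whether the hydrolysate and the matched amino acids give different gene expression in muscle, and since every rat swam and was fed, neither swimming nor feeding has a control here.

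Amino acids cross membranes largely through carriers of this kind. Sodium-coupled carriers of the Slc1, Slc6 and Slc38 families concentrate small neutral and acidic amino acids, glutamine, glycine and taurine in the cell, and the exchangers of the Slc7 family trade glutamine and other intracellular amino acids for leucine and other large neutral, cationic or sulphur amino acids from outside. Carriers of the Slc36 and Slc15 families move amino acids and short peptides together with protons, and Slc38a9 on the lysosome reports arginine to the kinase complex mTORC1. In cultured cells, scarcity of amino acids raises several of these genes through the transcription factor ATF4, which binds composite C/EBP-ATF elements.

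The core of that element, searched here as TGATGNAA on both strands, was present in 3 of 29 promoter sequences of 26 member genes, against 3.98% of 33365 promoters of the same length of 300 bases. The promoter sequences are RefSeq's for the rat assembly GRCr8 and run from 250 bases before to 50 bases after each start site. The stretches of 60 bases around the matches are shown because they are candidate places of the kind through which scarcity of amino acids is known to act, with the match in capitals and each read along the strand of its gene.
Slc38a1, chr7:129681510-129681569, minus strand: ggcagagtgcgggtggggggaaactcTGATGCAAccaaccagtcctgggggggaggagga
Slc7a1, chr12:11664428-11664487, plus strand: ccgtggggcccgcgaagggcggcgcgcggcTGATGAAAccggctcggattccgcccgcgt
Slc1a4, chr14:98761753-98761812, minus strand: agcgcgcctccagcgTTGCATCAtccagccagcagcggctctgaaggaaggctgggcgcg
In Slc1a4 the match lies on the opposite strand. The matches begin 142 bases before the start site in Slc38a1, 30 in Slc7a1 and 235 in Slc1a4. The letters were not in the windows of Slc38a2, Slc3a2 or Slc7a5, which says nothing of elements elsewhere in those genes. The standardized differences between the meals, defined below, were 0.24 for Slc38a1, 0.16 for Slc7a1 and -0.14 for Slc1a4, and each had a 95% interval that included 0.

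Values are the authors' deposited levels on a log2-like scale. Differences between arrays were minute on this scale, so they are given in millionths of a unit, as deviations from the mean of a probe set over the 8 arrays, and they cannot be read as fold changes. The median SD over all probe sets was 3.69 millionths. The standardized difference used throughout sets the WPH mean less the AAM mean against the pooled SD of the 2 groups. The array medians lay between -45.6 and 21.1 millionths of their mean, with AAM replicate 2 the lowest. AAM replicate 3 was the highest or the lowest array more often than any other, being highest for 18.6% and lowest for 18.6% of all named genes. The tissue label was checked against markers of muscle fibres, and all 14 measured markers ranked at 98.6% or higher among the levels of all probe sets. Markers of other cells ranked high too, with median ranks of 95.5% for fibroblasts, 84.7% for endothelium and 83.8% for macrophages. Those of adipocytes, erythrocytes, Schwann cells, satellite cells and epithelium had medians from 23.2% to 60.2%. The level of a carrier therefore cannot be assigned to the fibres.

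The carriers ranged widely in level in this muscle. Taken by the brightest probe set of each gene, 21 of the 31 measured genes had a mean level above 6.57. This limit is the level that 90% of 30 genes of liver, gut, pancreas, brain, kidney and testis did not exceed. The remaining 10 genes lay at or under it. Of all probe sets, 54.3% lay above the same level. That share counts every probe set, not the brightest of each gene, so it is no like-for-like background for the count of genes. The level of a probe set also depends on how well it binds, so ranks are given as percentiles among all probe sets, without a test. Slc38a2, which takes up small neutral amino acids with sodium, had the highest rank at 99.3% with a level of 12.1. Slc3a2, the heavy chain that brings the Slc7 light chains to the membrane, followed at 95%, and Slc38a4, a relative of Slc38a2, at 94.6%. Slc43a1, a sodium-independent carrier of leucine and other large neutral amino acids, stood at 92.4%, and the taurine carrier Slc6a6 at 90.9%. These 5 genes were the members ranked above 90%.

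**Figure D1:**
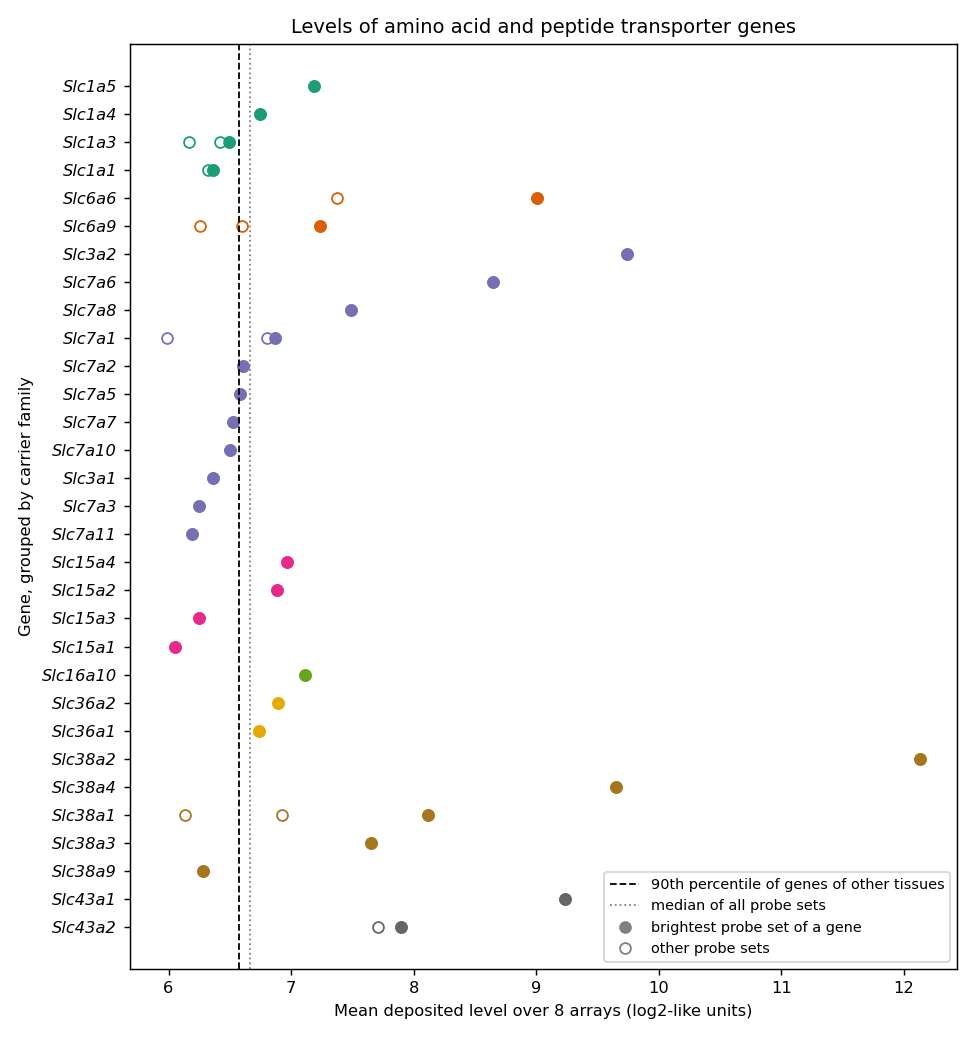
Mean deposited level of each probe set over the 8 arrays (x axis, log2-like units) for the 31 measured carrier genes, grouped by family, with filled points for the brightest probe set of a gene and open points for its others. Slc38a2 lies far to the right at 12.1, and 10 genes have no point beyond the dashed line at 6.57.

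Within the Slc7 family the light chains of Slc3a2 differed widely in rank. Slc7a6, an exchanger of cationic for neutral amino acids, stood at 88.0%, and Slc7a8, an exchanger of large and small neutral amino acids, at 73.0%. Slc7a5, the exchanger best known for leucine uptake, stood at 46.0% with a level of 6.58, just above the limit. Slc7a7 (43.3%), Slc7a10 (42.0%) and the cystine and glutamate exchanger Slc7a11 (22.4%) lay under the limit. Of the cationic carriers that need no heavy chain, Slc7a1 (57.7%) and Slc7a2 (47.3%) were above it and Slc7a3 (25.9%) was not. Slc3a1, the heavy chain known from kidney and intestine, ranked at 33.5%.

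Among the other families, the glutamine carrier Slc38a3 (76.0%), Slc38a1 (82.8%) and the leucine carrier Slc43a2 (79.9%) were above the limit by their brightest probe sets. So were the glycine carrier Slc6a9 (68.1%), the neutral amino acid exchanger Slc1a5 (66.7%) and the aromatic amino acid carrier Slc16a10 (65.0%). The proton-coupled carriers Slc36a2 (58.6%) and Slc36a1 (53.2%) and the exchanger Slc1a4 (53.4%) were nearer to it. The glutamate carriers Slc1a3 (41.6%) and Slc1a1 (33.7%) and the lysosomal arginine sensor Slc38a9 (28.3%) were under it. Of the peptide carriers, Slc15a4 of the lysosome (60.8%) and Slc15a2 of the plasma membrane (58.2%) were above the limit, while Slc15a3 of the lysosome (25.98%) and Slc15a1, the peptide carrier of the gut (14.0%), were under it. Probe sets of 1 gene could disagree. Those of Slc38a1 had levels from 6.13 to 8.11, those of Slc6a9 from 6.25 to 7.24 and those of Slc7a1 from 5.99 to 6.87. With the lowest probe set of each gene these genes fell under the limit, and 18 members were above it.

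None of the carrier genes passed the threshold for a difference between WPH and AAM. By limma with Benjamini-Hochberg adjustment, 0 of the 42 member probe sets had an adjusted p below 0.05, as did 0.0% of all probe sets, and the smallest adjusted p among members was 0.9998. At an unadjusted p below 0.05 there was 1 member probe set, that of Slc16a10, against 3.58% of all probe sets. For 0 of the 42 were the 4 WPH arrays and the 4 AAM arrays without overlap, against 2.23% of all probe sets. Both shares of members were no larger than the background. The call for Slc16a10 was lost when any of WPH replicates 1, 2 and 4 or AAM replicates 3 and 4 was left out. The groups of 3 members did not overlap without WPH replicate 4, against 4.56% of all probe sets, and those of 2 members without WPH replicate 3, against 4.31%. Of the 31 genes, 15 were higher and 16 lower after WPH, a split that was 20 and 9 with 2 equal under quantile normalization and 7 and 24 after centring each array on its median. Of the 31, 24 had a difference smaller than its own standard error. The median standardized difference was -0.07 over the members and -0.06 over all named genes. After median centring these medians were -0.50 and -0.51, so the lower values in that setting were shared by all named genes. In muscle tissue, fewer cells of a type and less RNA per cell cannot be told apart.

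With 4 rats per meal the intervals were wide. Over the members the 95% intervals reached from -3.61 to 2.99 pooled SDs, and 30 of 31 included 0. The standardized difference was below 1 in size for 27 of 31 members, and for 84.2% of all named genes.

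**Figure D2:**
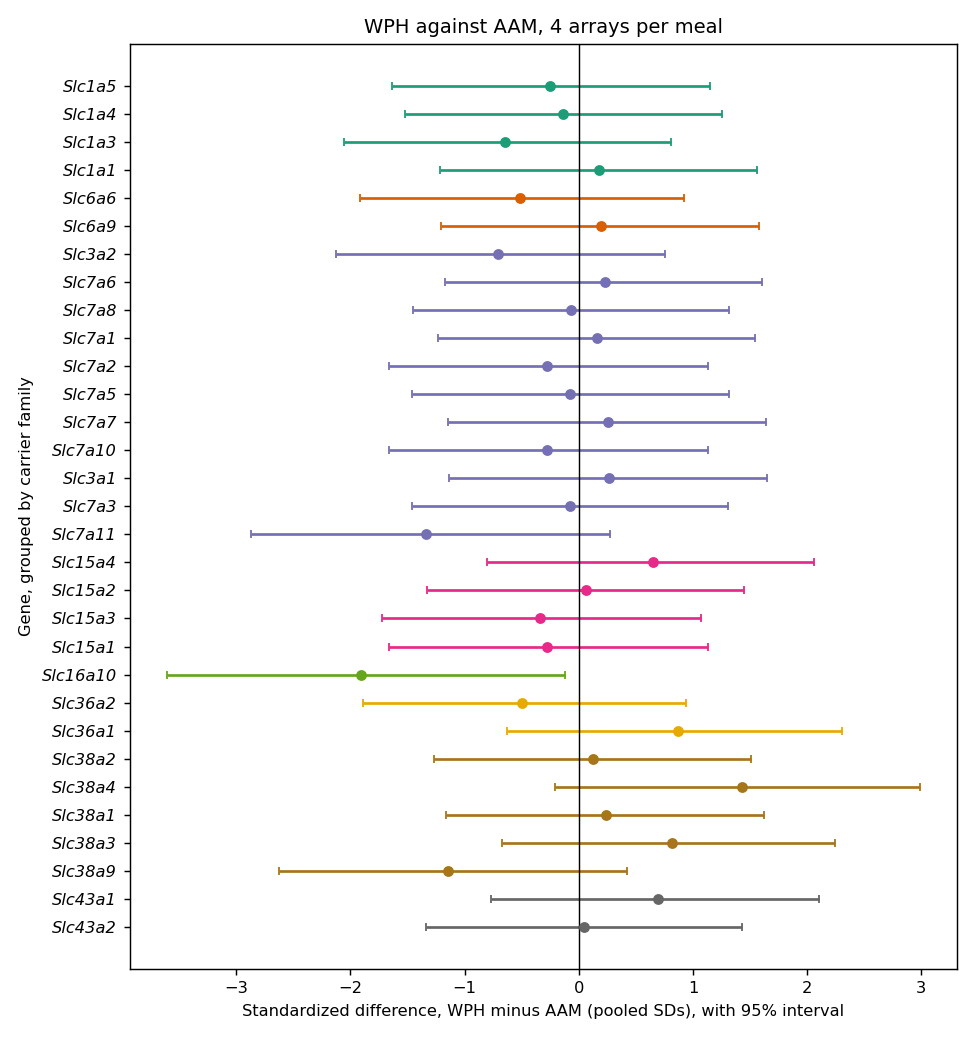
Standardized difference between WPH and AAM (x axis, in pooled SDs, positive where WPH was higher) with its 95% interval for each of the 31 carrier genes, 4 arrays per meal. Every interval but that of Slc16a10 crosses 0.

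Slc16a10, a facilitative carrier of tyrosine, tryptophan and phenylalanine, had the largest standardized difference of the 31 genes, though in millionths several others, such as Slc43a1, differed by more. Its deviations were -22.6, -27.4, 6.91 and -15.8 millionths in WPH replicates 1 to 4, against -3.12, 6.60, 25.4 and 29.98 in AAM replicates 1 to 4. WPH replicates 1, 2 and 4 lay below all AAM arrays, while WPH replicate 3 lay above AAM replicates 1 and 2. The difference was -29.4 ± 10.9 millionths (SE, n = 4 per group), a standardized difference of -1.91 (95% interval -3.61 to -0.12). By limma the unadjusted p was 0.0276 and the adjusted p 0.9998, and the exact two-sided permutation p was 0.0857, where 0.0286 is the smallest possible. The direction did not hold under quantile normalization, where the standardized difference was 0.014. Among the marker lists, only that of skin and epithelium had mean z-scores that did not overlap between the groups. The scores ran from -0.48 to -0.04 after WPH, against 0.04 to 0.43 after AAM. Of the 8 markers, 6 were lower and 2 higher after WPH, with 0 at an unadjusted limma p below 0.05. They ranked at 12.6% to 55.3%, with 2 of 8 above the limit set by genes of other tissues. Their median rank was 23.2%, against 23.0% for the genes of other tissues. The part of these markers in the Slc16a10 difference was not tested.

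The Slc38 family holds the sodium-coupled carriers of glutamine and small neutral amino acids, and 4 of its 5 genes were higher and 1 lower after WPH, none past the threshold, with 1 higher, 2 lower and 2 equal under quantile normalization and 3 higher and 2 lower after median centring. Slc38a2 deviated by 4.73, -6.32, 10.4 and -6.16 millionths after WPH, against -4.54, -3.12, -12.5 and 17.5 after AAM. The groups overlapped throughout, with the highest array and the lowest array both in the AAM group. Its difference was 1.33 ± 7.62 millionths (SE, n = 4 per group), and its standardized difference of 0.12 had an interval of -1.27 to 1.51.

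Slc38a4 deviated by 62.0, 107, 173 and -21.2 millionths after WPH, against -72.8, 34.5, -272 and -9.83 after AAM. WPH replicates 1 to 3 were above all AAM arrays, and AAM replicate 3 was far below the rest. The standardized difference was 1.43 (95% interval -0.21 to 2.99) with an unadjusted limma p of 0.0747. Under quantile normalization the means of both groups were equal. Without AAM replicate 2 the unadjusted limma p was 0.0466, where 3.53% of all probe sets fell below 0.05. Without any other single array that p lay between 0.0554 and 0.169. Slc38a9 showed the same kind of split the other way. Its deviations were -4.65, -2.48, -2.67 and 3.71 millionths after WPH, against 1.66, 2.87, 0.32 and 1.24 after AAM. WPH replicates 1 to 3 were below every AAM array and WPH replicate 4 was above them all. Its standardized difference of -1.14 (95% interval -2.63 to 0.42) became -4.29 without WPH replicate 4. The unadjusted limma p was then 0.0022 and the adjusted p 0.9999, where 3.55% of all probe sets had an unadjusted p below 0.05. Without any other single array the unadjusted limma p of Slc38a9 lay between 0.156 and 0.313.

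Slc38a3, which carries glutamine with sodium against protons, deviated by -254, -109, 313 and 546 millionths after WPH, against -446, -45.6, 15.1 and -18.9 after AAM. WPH replicates 3 and 4 were the highest arrays and AAM replicate 1 was the lowest. The standardized difference was 0.82 (95% interval -0.67 to 2.25). Slc38a1 had 0.24 for its brightest probe set and -0.70 and -0.53 for its dimmer ones, so its probe sets disagreed in direction.

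**Figure D3:**
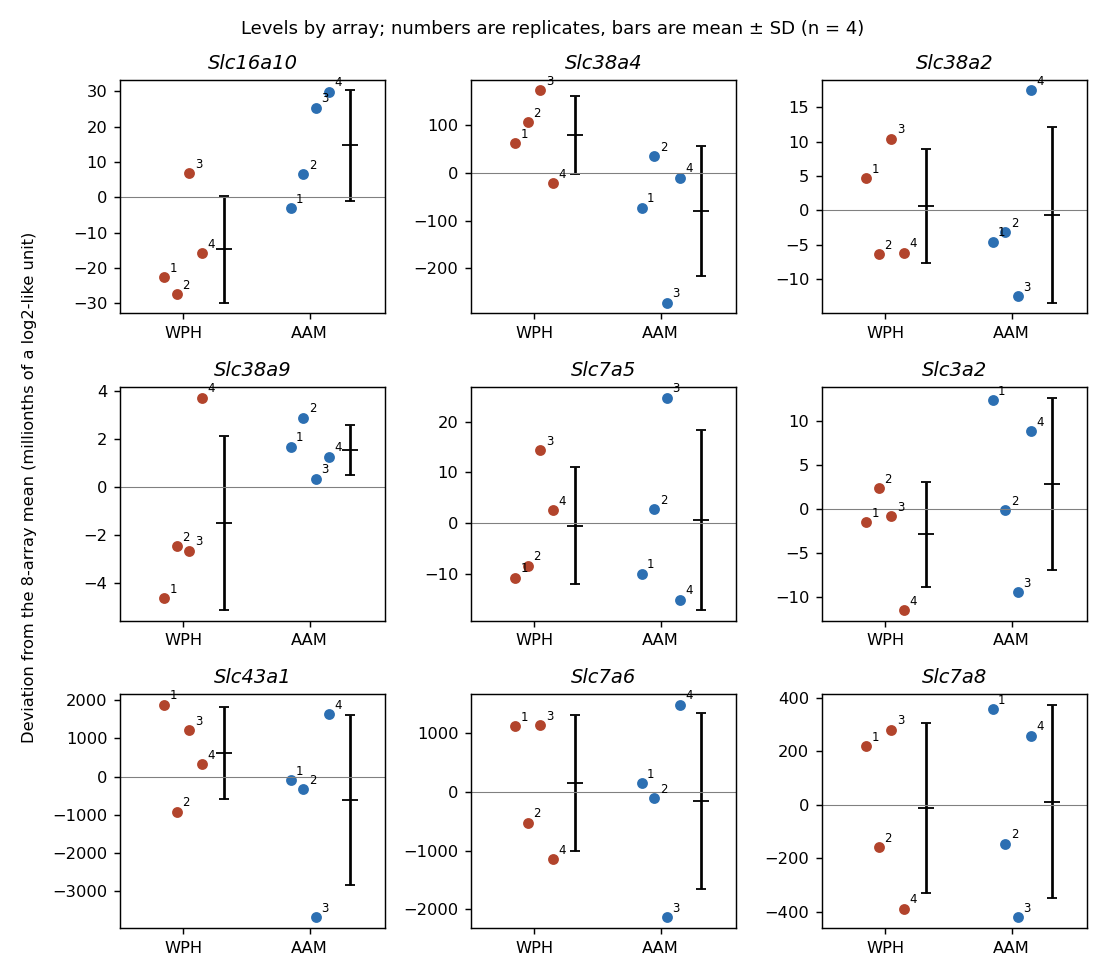
Deviation of each array from the 8-array mean (y axis, millionths of a log2-like unit) for 9 carrier genes, with numbered points for replicates and bars for mean ± SD (n = 4). For Slc38a9, 3 WPH arrays lie below all AAM arrays and WPH replicate 4 above them, while Slc43a1, Slc7a6 and Slc7a8 have SDs of 1783, 1250 and 315 millionths over the arrays.

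The heterodimeric exchangers need Slc3a2 and a Slc7 light chain in 1 complex, and neither part stood apart between the meals. Slc3a2 deviated by -1.52, 2.33, -0.84 and -11.4 millionths after WPH, against 12.3, -0.17, -9.42 and 8.77 after AAM. WPH replicate 4 and AAM replicate 3 were low, and AAM replicates 1 and 4 high. The standardized difference was -0.71 (95% interval -2.12 to 0.76), and 0.46 under quantile normalization. Slc7a5 deviated by -10.8, -8.43, 14.4 and 2.54 millionths after WPH, against -9.99, 2.73, 24.7 and -15.1 after AAM. Here AAM replicates 3 and 4 were the extremes on either side. Its standardized difference of -0.08 had an interval of -1.46 to 1.31.

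Over all 11 genes of Slc7 with Slc3, 4 were higher and 7 lower after WPH, but 9 higher and 2 lower under quantile normalization. After median centring, where the median over all named genes was -0.51, 2 were higher and 9 lower. On the deposited values their standardized differences ran from -1.34 for Slc7a11 to 0.27 for Slc3a1. For Slc7a11, WPH replicate 4 deviated by -1.498 millionths, while the other WPH arrays lay between -0.18 and 0.21 and the AAM arrays between 0.06 and 0.86, and its standardized difference was 0.25 under quantile normalization. The cationic carriers Slc7a1, Slc7a2 and Slc7a3 had 0.16, -0.28 and -0.08. The 3 probe sets of Slc7a1 were split, with 1 higher and 2 lower after WPH.

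Slc7a6 and Slc7a8 were among the 5 most variable members, together with Slc43a1, Slc1a3 and Slc38a3. Slc7a6 deviated by 1129, -518, 1137 and -1144 millionths after WPH, against 148, -105, -2134 and 1488 after AAM. Slc7a8 deviated by 219, -159, 280 and -389 millionths after WPH, against 357, -146, -420 and 258 after AAM. In both genes AAM replicate 3 was the lowest array and WPH replicate 4 the next, and the standardized differences were 0.23 for Slc7a6 and -0.07 for Slc7a8. The SD of Slc7a6 over the 8 arrays, 1250 millionths, was at the 98.6th percentile of all probe sets, and that of Slc7a8, 315 millionths, at the 96.4th.

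Whether Slc3a2 varied from array to array with its light chains was examined over all 8 arrays, in a family of 7 correlations that also held Slc7a5 with Slc38a2. None passed the threshold after Benjamini-Hochberg adjustment. The highest was that of Slc3a2 with Slc7a8 (Pearson r = 0.79, exact permutation p = 0.0184, adjusted 0.0767; Spearman rho = 0.69, exact permutation p = 0.0694, adjusted 0.34). Slc7a11 had r = 0.76 (exact permutation p = 0.0219, adjusted 0.0767) and rho = 0.62 (exact permutation p = 0.115, adjusted 0.34). Without WPH replicate 4 and AAM replicate 1, the arrays farthest from the median of Slc3a2, r was 0.62 with Slc7a8 and 0.55 with Slc7a11. These and the later values of r without 2 arrays rest on 6 arrays and were not tested. Slc7a5 went the other way, with r = -0.68 (exact permutation p = 0.0617, adjusted 0.144) and rho = -0.52 (exact permutation p = 0.197, adjusted 0.34), and r = -0.82 without those arrays. Slc7a6 had r = 0.63 (exact permutation p = 0.0992, adjusted 0.174) and rho = 0.52 (exact permutation p = 0.197, adjusted 0.34), and r = 0.73 without those arrays. Slc7a7 had r = 0.02 (exact permutation p = 0.954) and rho = -0.05 (exact permutation p = 0.935). Slc7a10 had r = -0.47 (exact permutation p = 0.234, adjusted 0.327) and rho = -0.38 (exact permutation p = 0.36, adjusted 0.42), and r became -0.98 without the same arrays. Slc7a5 and Slc38a2 had r = -0.41 (exact permutation p = 0.307, adjusted 0.358) and rho = -0.48 (exact permutation p = 0.243, adjusted 0.34), and r = -0.66 without WPH replicate 3 and AAM replicate 3. Under quantile normalization the signs for Slc7a5, Slc7a8 and Slc7a10 with Slc3a2 were the opposite, with r of 0.33, -0.11 and 0.25. The exact permutation p-values there were 0.661, 0.893 and 0.661, so these correlations could not be told from 0. A group of 4 arrays is too small for a correlation within a meal.

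**Figure D4:**
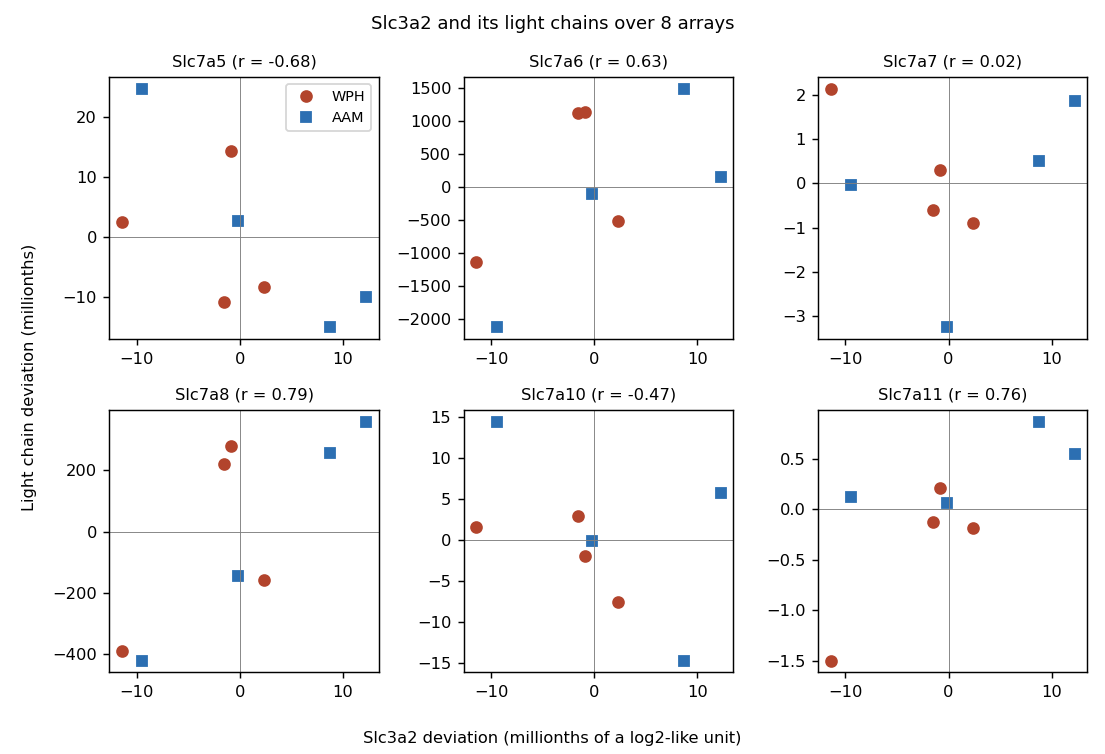
Deviation of Slc3a2 (x axis) against that of each of its 6 light chains (y axis), both in millionths of a log2-like unit, over the 4 WPH and 4 AAM arrays. Points rise together for Slc7a8 (r = 0.79) and Slc7a11 (r = 0.76) and run the opposite way for Slc7a5 (r = -0.68), and none passed the adjusted threshold.

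The sodium-independent carriers of the Slc43 family export and import leucine and its relatives. Slc43a1 had the largest spread of all members, an SD of 1783 millionths at the 98.9th percentile. It deviated by 1874, -923, 1208 and 319 millionths after WPH, against -89.2, -337, -3681 and 1630 after AAM. AAM replicate 3 alone set the lower end of that range. The standardized difference was 0.69 (95% interval -0.77 to 2.10). Slc43a2 had 0.05 for its brightest probe set and 1.09 for the other.

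The Slc15 carriers move short peptides, the form in which the hydrolysate differs from the amino acid mixture. Of the 4 genes, 2 were higher and 2 lower after WPH, none past the threshold, with 3 higher under quantile normalization and 1 after median centring. Slc15a4 deviated by 34.7, 32.9, 3.91 and -32.7 millionths after WPH, against 13.1, -14.4, -47.6 and 10.1 after AAM. WPH replicates 1 and 2 were the highest arrays, and WPH replicate 4 was among the lowest. Its standardized difference was 0.65 (95% interval -0.81 to 2.06). Slc15a2 deviated by -67.3, -7.08, 39.6 and 42.7 millionths after WPH, against 59.3, 12.5, -118 and 38.1 after AAM, which gave 0.06 (95% interval -1.33 to 1.44).

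The remaining peptide carriers lay at levels no higher than genes of other tissues. Slc15a1 deviated by -15.3, 1.95, 7.42 and 1.85 millionths after WPH, against 1.13, -2.06, 5.81 and -0.77 after AAM. WPH replicate 1 was the lowest array, and the standardized difference was -0.28 (95% interval -1.66 to 1.13), or 0.81 without that array. Slc15a3 deviated by -4.64, 2.04, 1.40 and -1.27 millionths after WPH, against -2.82, 0.50, 6.49 and -1.70 after AAM, with a standardized difference of -0.34 (95% interval -1.72 to 1.07). Markers of macrophages, cells in which Slc15a3 is known to be used, were measured for 11 genes, 10 of them above the limit of 6.57, with mean z-scores from -0.79 to 0.78 after WPH, against -0.75 to 0.59 after AAM.

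The Slc36 carriers take up small amino acids with protons. Slc36a2 deviated by -102, -46.5, 3.22 and 40.0 millionths after WPH, against 29.3, 101, 141 and -166 after AAM. All WPH arrays lay inside the range of the AAM arrays, and the standardized difference was -0.50 (95% interval -1.89 to 0.93). Without AAM replicate 4 it was -1.95, with an unadjusted limma p of 0.0387, where 4.39% of all probe sets fell below 0.05. Without any other single array that p lay between 0.39 and 0.849. Slc36a1 had a standardized difference of 0.87 (95% interval -0.63 to 2.31). Its WPH replicates 1 to 3 were above all AAM arrays and WPH replicate 4 was below AAM replicates 1 to 3. Without WPH replicate 4 the standardized difference was 2.05 with an unadjusted limma p of 0.0357, where 3.55% of all probe sets fell below 0.05. Without any other single array that p lay between 0.146 and 0.471. After median centring the standardized difference was -0.37, where the median over all named genes was -0.51.

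The Slc1 family joins glutamate carriers and exchangers of neutral amino acids, and 1 of its 4 genes was higher and 3 lower after WPH. All 4 were lower after median centring, where the median over all named genes was -0.51. For the brightest probe set of Slc1a3, a glutamate and aspartate carrier, the SD was at the 98.9th percentile among probe sets of like level. This was the highest such rank of the 31 genes, but the dimmer probe sets of Slc1a3 stood at the 62.5th and 9.4th percentiles. The deviations of the brightest probe set were -511, -302, -130 and 350 millionths after WPH, against 511, 132, 548 and -598 after AAM. AAM replicate 4 was the lowest array and AAM replicates 1 and 3 the highest, and the standardized difference was -0.65 (95% interval -2.06 to 0.81), or -1.71 without AAM replicate 4. All 3 probe sets of Slc1a3 were lower after WPH. Slc1a5 deviated by -13.7, -7.81, -14.7 and 21.7 millionths after WPH, against 30.8, -5.38, 32.7 and -43.6 after AAM. Its standardized difference was -0.26 (95% interval -1.64 to 1.15), and Slc1a4 and Slc1a1 had -0.14 and 0.18.

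Taurine and glycine enter through Slc6 carriers. Slc6a6 deviated by 58.2, -78.6, 63.6 and -139 millionths after WPH, against 120, 30.9, -82.9 and 28.2 after AAM. WPH replicate 4 was the lowest array and AAM replicate 1 the highest. Both of its probe sets were lower after WPH, the brighter by a standardized difference of -0.52 (95% interval -1.91 to 0.92). The 3 probe sets of Slc6a9 were all higher, the brightest by 0.19 (95% interval -1.21 to 1.57). Of the 7 genes with several probe sets, 5 had all of them in the same direction.

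The carrier genes ranked high in their spread from rat to rat. The median member's SD over the 8 arrays was at the 80.9th percentile of all probe sets, and at the 80th percentile among probe sets of like level. For 10 of 31 members the SD was above the 90th percentile. The SD within the WPH group was the larger for 10 of 31 members, against 38.5% of all named genes. AAM replicate 3 was the highest array for 9 members and the lowest for 9 others. It was high for Slc7a1, Slc7a5, Slc7a10 and Slc15a3, and low for Slc43a1, Slc38a4, Slc7a6, Slc15a2 and Slc7a2. These values are a description, and what set this array apart was not tested.

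**Figure D5:**
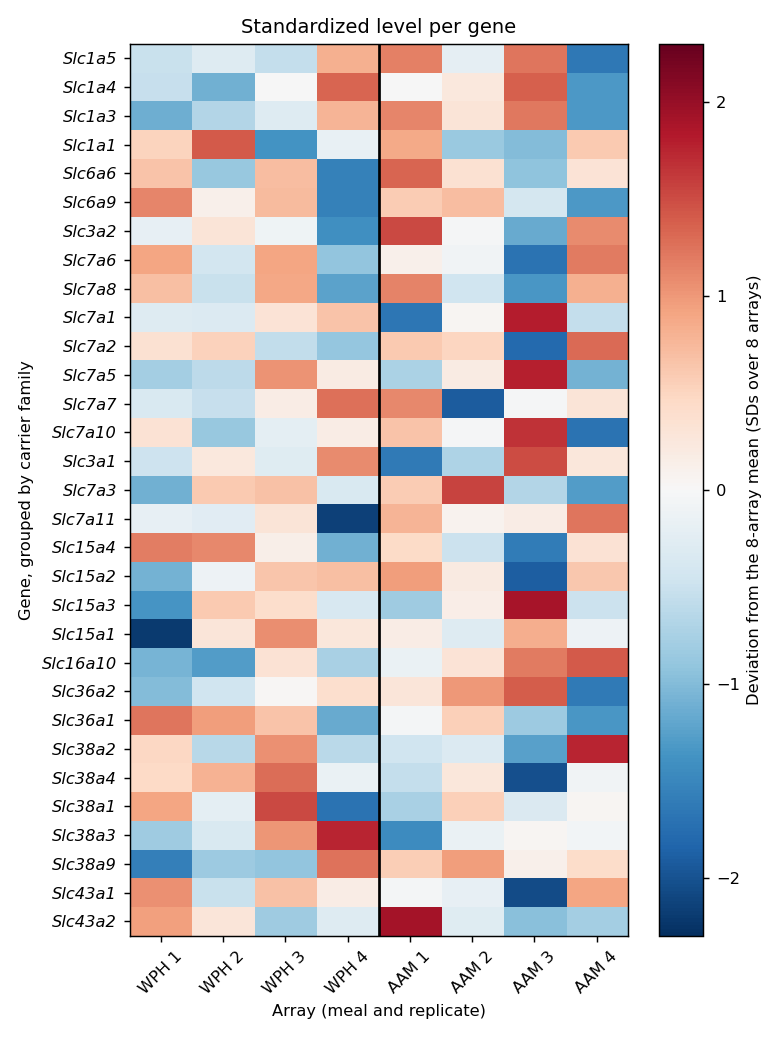
Deviation of each array (columns, WPH left of AAM) from the 8-array mean for the 31 carrier genes (rows, by family), in units of the SD over the 8 arrays, red for higher and blue for lower. The column of AAM replicate 3 holds the highest value for 9 genes and the lowest for 9, and no row is all red in one meal and all blue in the other.

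Genes that work around the carriers were counted in the same way. Of 21 other amino acid carriers measured, 9 were higher and 12 lower after WPH, with 0 at an unadjusted p below 0.05 and a median standardized difference of -0.15. Slc7a12 and Slc38a5 had the smallest unadjusted limma p-values, 0.0815 and 0.0915, both with an adjusted p of 0.9998. Their standardized differences were -1.40 and -1.34. The groups of Slc38a5 did not overlap, against 2.23% of all probe sets without overlap. Slc38a5 ranked at 27.2% in level, under the limit set by genes of other tissues. Of 28 genes of amino acid sensing at the lysosome, 9 were higher and 19 lower, with 0 at an unadjusted p below 0.05 and a median of -0.36. Wdr24 and Sesn2, parts of the machinery that holds mTORC1 to the supply of amino acids, had -1.59 and -0.88. Of 14 regulators of carrier transcription and turnover, 4 were higher and 10 lower, with 0 at that p and a median of -0.39, and Ddit3 and Trib3, both ATF4 targets, had 1.498 and -0.76. The median over all named genes was -0.06, and the differences between these lists were not tested.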

How the data were processed

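Per the labels' protocols, 100 ng of total RNA per rat was labelled with biotin, and the groups were read from the sample descriptions, which name 4 WPH and 4 AAM biological replicates. The authors deposited 1 log2-like expression level per probe set and array. Per the submitters' processing notes R 2.7.2 was used. Background correction, normalization, probe set summary, scale and centring are details not given in the sources used here. Array batches are likewise not stated. No 2 arrays held identical values. The number of arrays limits the precision.

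Of the probe sets, 57 controls were left out and 31042 were tested by limma 3.58.1 (R 4.3.3), using lmFit and eBayes without covariates, two-sided, with Benjamini-Hochberg adjustment over all of them and a threshold of 0.05. Symbols came from the platform annotation, in which 20826 tested probe sets had 1 symbol, 436 several and 9780 none. The probe set with the highest mean level stands for its gene. Standardized differences have noncentral t intervals with 6 degrees of freedom. The procedure was tested on simulated data with shifts far larger than any member's standardized difference, which does not measure its power for small differences. Python 3.11.15 with scipy 1.17.1 did the permutation tests.

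Values in each array are given for members with an unadjusted p below 0.05 or groups without overlap, the highest member of each family, the 5 largest SDs, and Slc7a5, Slc3a2, Slc38a2, Slc38a9 and the Slc15 genes; Slc38a4 was added after its values were seen. Of the other lists, the 2 genes with the smallest p are named. The members, lists and tests were chosen with earlier results of these data known. Alternatives were quantile normalization, median centring, a replicate block, bright probe sets only, a looser threshold of 0.1, 1 value per gene, a trended robust prior, weighted arrays, and fits without single arrays.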

Additional observations from a re-analysis of the deposited data

Results flagged for a closer look

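Among the 4 AAM arrays, replicate 1 was far below the other 3 for Slc38a3, the sodium- and proton-coupled glutamine carrier. Its gap to the nearest array was 0.868 of the range of the group (Dixon's ratio, above the 95% critical value for 4 samples). This was the 1 group flagged of 62 tested for the 31 members, where chance flags about 3.1.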

How the results depend on the processing

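No member probe set had an adjusted p below 0.05 by limma under any of the 16 alternative fits or at a threshold of 0.1. At an unadjusted p below 0.05 there was 1 member probe set, with 0 under quantile normalization (1.57% of all probe sets), 2 without WPH replicate 4 and AAM replicate 3 together (Slc38a4 and Slc38a9, against 3.9% of all), and 0 to 2 when single arrays were left out (3.27% to 4.44% of all). The cause of these shifts was not tested. The groups of 1 member, Slc16a10, did not overlap after median centring, against 0.209% of all probe sets. That centring moved every probe set of an array by the array's median, which lay farthest out in AAM replicate 2, at -45.6 millionths. It lowered the WPH values against the AAM values for all genes, so the separation of Slc16a10 is not a result of that gene alone. The standardized difference of Slc16a10, -1.91 on the deposited values, became 0.014 under quantile normalization. It lay between -2.90 and -1.62 when single arrays were left out. The median over members was 0.17 under quantile normalization (20 higher, 9 lower, 2 equal) and -0.50 under median centring (7 higher, 24 lower), where that of all named genes was -0.51, and it lay between -0.18 and 0.07 when single arrays were left out. Under quantile normalization r with Slc3a2 was 0.33 for Slc7a5, -0.11 for Slc7a8 and 0.25 for Slc7a10, and Slc38a2 had the same value on all arrays, so its r could not be computed. Slc15a4, Slc1a3, Slc38a3, Slc38a9, Slc43a1 and Slc6a6, 6 of 31, kept their sign in every fit that held them. The others changed sign in at least 1 fit, 13 under quantile normalization, except Slc38a4, whose difference was 0 there. Above the level of other tissues were 21 members, and 17 with the highest such gene as the limit. Whether replicate numbers paired the rats was not tested. Same-numbered deviations correlated at -0.08 to 0.17, and 3 of 4 WPH arrays correlated best with their own number. The highest correlation, 0.29, was that of WPH replicate 4 with AAM replicate 3. With the replicate block 1 member probe set had an unadjusted limma p below 0.05, against 4.4% of all probe sets. For Slc16a10 the mean difference was unchanged in that fit, with an unadjusted limma p of 0.0108 and an adjusted p of 0.9999. Its standardized difference there was -3.20. That value used the residual SD after replicate effects, not the pooled SD used elsewhere, so it is not comparable with -1.91.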
